A study of Mus musculus with 9 samples.

Results

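The nasal mucosa collected 4 weeks after the last ovalbumin challenge was set against the mucosa of animals given saline. This comparison used 6 of the 9 arrays of the series, the 3 titled as taken 4 weeks after the last challenge and the 3 titled control, and all annotated probe sets, with the description kept to genes on the autosomes. All samples were labelled as nasal mucosa of male BALB/c mice, an inbred strain widely used for allergy models, aged 6 to 8 weeks and kept free of specific pathogens. The control animals had received saline for both sensitisation and challenge. The 4-week animals had been sensitised to and challenged with ovalbumin, the egg-white protein used as a model allergen, and then left without allergen. The 3 other arrays, called OVA here, had the same allergen treatment and were collected 2 hours after the last challenge; they entered the fit and are given where a second time point helps. The labels do not say how long after their last saline challenge the control animals were taken, and not that each array held a separate animal. The p-values therefore measure the spread between these samples only, which may be technical.

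The nasal mucosa combines a respiratory epithelium of ciliated, secretory and basal cells with an olfactory epithelium, where sensory neurons, each using mainly 1 odorant receptor gene, are renewed from basal progenitors throughout life. Allergic rhinitis is driven by IgE, mast cells and T helper cells that make IL-4, IL-5 and IL-13, which recruit eosinophils and raise mucus production. Avoidance of the allergen lets these responses wane, and the series title names genes related to avoidance, so this comparison asks what was still different from saline after 4 weeks without allergen.

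Total RNA was measured with 1 Affymetrix Mouse Gene 1.0 ST array per sample, and every level below is a log2 value as the authors deposited it. A change is the mean of the 4-week arrays minus the mean of the arrays labelled control, so that a change of 1 is a 2-fold difference. The values of arrays 1, 2 and 3 of a group are given in that order, which has no meaning beyond the labels. A gene was called, and is said to have risen or fallen, when limma gave it an adjusted p under 0.05 over the 23410 annotated probe sets; a gene with several probe sets was represented by the brightest. The fit was repeated 9 times with a different array left out, and a call that was lost in any of these repeats is stated as such, while a called gene whose change is printed without such a remark kept its call in all 9.

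The arrays labelled control differed from the others in sex-linked genes. Xist, which shuts down one X chromosome in females, was at 10.62, 10.70 and 11.11 on the arrays labelled control (mean 10.81 ± 0.26, SD, n = 3) and at 4.27, 4.31 and 4.42 on the 4-week arrays (4.33 ± 0.08), an 89.3-fold difference. The Y-linked genes Eif2s3y, Uty and Kdm5d were 30.7-fold, 18.7-fold and 5.27-fold higher on the 4-week arrays. The arrays labelled control thus carried a female pattern and the 4-week and OVA arrays a male one, although all were labelled male. In every comparison with the arrays labelled control, treatment and this sex pattern cannot be told apart. Age at collection, handling and time of day were not tested. Some autosomal genes are known to be sex-biased in mouse liver or kidney. Of 19 male-biased genes 1 rose and 1 fell (5.26% each), and of 18 female-biased genes 1 rose and 2 fell (5.56% and 11.1%). Over all autosomal genes 6.63% rose and 6.66% fell, so these counts are near the background. The male-biased rises ranged from 0 to 3 when 1 array was left out. The median levels, 4.33 and 4.60, lay in the dimmest of 5 bins of autosomal genes. The part of sex in the autosomal changes was not tested. The largest fall among the female-biased genes was that of Cyp4a14, a cytochrome P450 (−1.68, adjusted p = 0.000909 in limma). The male-biased Cyp4a12a, also a P450, had a change of 0.78 (adjusted p = 0.0638 in limma).

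The labelled tissue was borne out by its markers. Omp, the olfactory marker protein, was at 12.08, 12.26 and 12.43 on the arrays labelled control and 12.08, 11.47 and 11.78 on the 4-week arrays, with a change of −0.48 that was not called (adjusted p = 0.0669 in limma, but 0.0377 after quantile scaling). Cyp2g1, an olfactory cytochrome P450, was at 12.71, 12.97 and 12.91 and 12.99, 12.79 and 12.79. Bpifa1, a secreted protein of the airway lining, lay between 12.37 and 13.13, and Foxj1, the ciliated cell factor, between 7.33 and 7.76 on these 6 arrays. Neither was called, and the muscle gene Acta1 and the cartilage gene Col2a1 stayed between 5.71 and 6.84. In whole mucosa, fewer cells of a type and less RNA per cell cannot be told apart.

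Of 23410 annotated probe sets, 3364 (14.4%) differed between the 4-week arrays and the arrays labelled control. By autosomal probe sets, 7.65% were higher and 6.47% lower. Of 19106 autosomal genes, 1267 rose (6.63%) and 1272 fell (6.66%), and these shares are the background for the gene groups below. The groups did not overlap for 6505 genes (34.0%). The median absolute change of the called genes was 0.44, with 30 rising and 89 falling by more than 2-fold. The calls of 879 genes, 495 higher and 384 lower, were kept whichever array was left out. The count of called autosomal probe sets, 2946 with all arrays, was 1345 without 4-week array 2, 1572 without control array 2 and 1740 without control array 3. Against the arrays labelled control, the OVA arrays had 245 autosomal genes called (1.28%), 142 higher (0.743%) and 103 lower (0.539%). The 4-week arrays had 501 higher (2.62%) and 493 lower (2.58%) than the OVA arrays.

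The direction of change went with the level of expression, and this bears on every gene group. When the autosomal genes were divided into 5 equal bins by their mean level, the median change rose from −0.13 in the dimmest bin over −0.10, −0.04 and 0.03 to 0.09 in the brightest. The brightest bin held 666 rises and 229 falls, the dimmest 13 and 231. After quantile scaling of the deposited values the medians lay between −0.00 and −0.02. The share of higher calls among autosomal probe sets was 54.2% as deposited, 48.3% after quantile scaling and 62.5% after median centring of each array, so the count of each group below is also given after quantile scaling where it moved by more than 1. The SD of the values across genes was 1.66 to 1.67 on the arrays labelled control and 1.71 to 1.78 on the 4-week arrays.

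**Figure D1:**
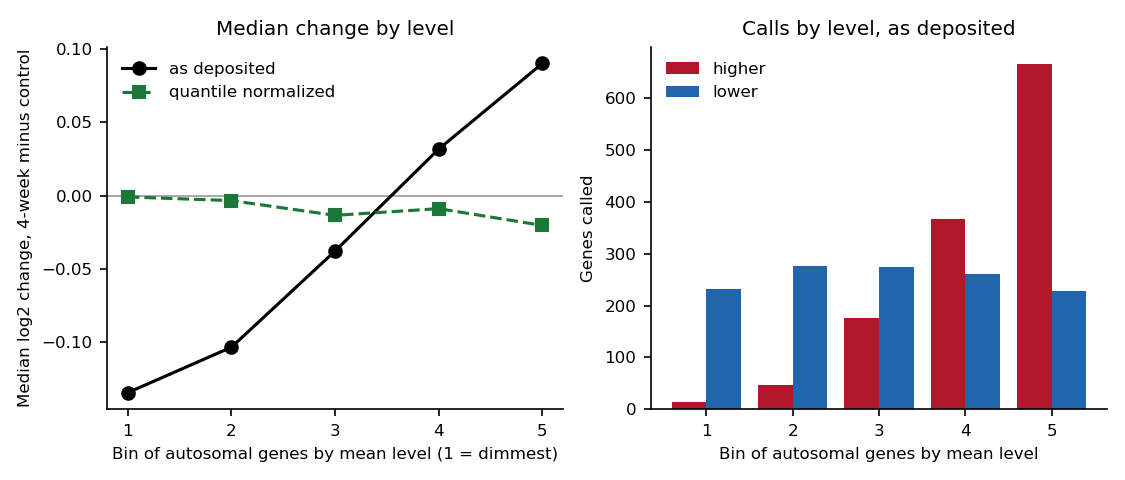
Left, median log2 change (4-week minus control) of the autosomal genes in each of 5 bins by mean level, as deposited (circles) and after quantile normalization (squares). Right, number of genes called higher (red) or lower (blue) in each bin as deposited; the deposited medians run from −0.13 in the dimmest bin to 0.09 in the brightest, and the rises from 13 to 666.

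**Figure D2:**
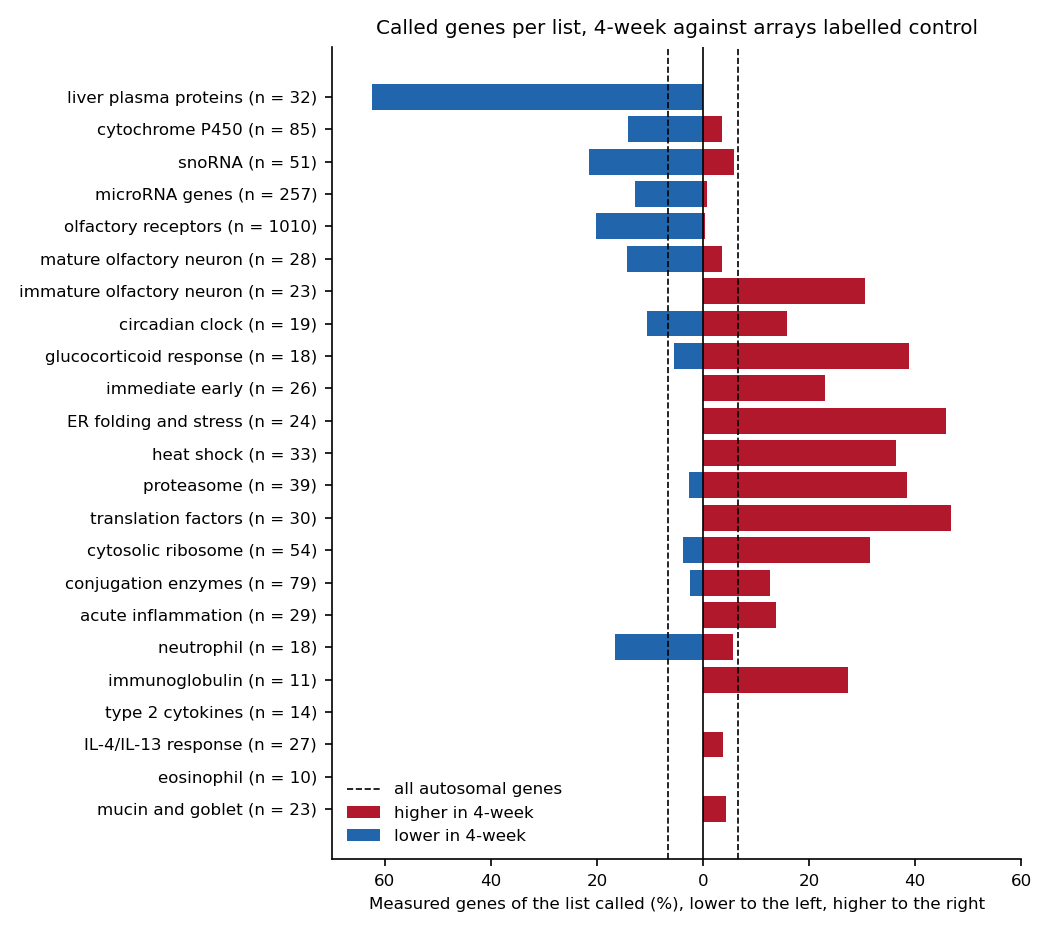
Share (%) of the measured genes of each list called in limma, lower in the 4-week arrays to the left (blue) and higher to the right (red), with the number measured in brackets. Dashed lines are the shares over all autosomal genes, 6.66% lower and 6.63% higher; the liver plasma proteins, with 20 of 32 lower, reach farthest to the left, and the type 2 cytokine and eosinophil lists have no bar.

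Plasma protein genes of the kind made mainly by the liver fell as a group. Of 32 measured genes of this group, 20 fell and 0 rose, against 6.66% of all autosomal genes falling, and the group's median change was −0.73 beside −0.05 over all genes. Hpx, which encodes the haem-binding protein hemopexin, was at 7.13, 6.79 and 6.33 on the arrays labelled control and at 4.53, 4.89 and 4.99 on the 4-week arrays. Rbp4, the carrier of retinol in blood, was at 8.15, 7.90 and 7.67 against 6.44, 6.44 and 6.23. Cps1, the first enzyme of the urea cycle and not itself a plasma protein, was at 6.75, 6.36 and 5.95 against 4.65, 4.62 and 4.90. In each of these genes all 3 arrays labelled control were above all 3 4-week arrays. Hpx fell by 1.95 on the log2 scale (SE 0.21, adjusted p = 0.00236 in limma), Cps1 by 1.63 (SE 0.19, adjusted p = 0.00239) and Rbp4 by 1.54 (SE 0.14, adjusted p = 0.00107).

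Further members of the plasma protein group fell together across several functions. Alb, which encodes albumin, was at 5.19, 4.98 and 5.11 on the arrays labelled control and 3.81, 3.48 and 4.12 on the 4-week arrays (−1.29, SE 0.15, adjusted p = 0.00261 in limma). The coagulation genes Fgg (fibrinogen gamma chain), F2 (prothrombin) and Serpinc1 (antithrombin) had changes of −1.44, −1.004 and −0.92. The carrier genes Ttr (transthyretin), Apoc3 (an apolipoprotein) and Vtn (vitronectin) had −1.33, −0.91 and −1.19. Ahsg, the fetuin that binds calcium salts, had −1.28, and Itih3, an inter-alpha-trypsin inhibitor chain, −1.29. All of these were called in all 9 repeats. Fgb, the fibrinogen beta chain, had −0.83 (lost in 4 of 9 repeats, adjusted p up to 0.069 without control array 2) and Itih1 −0.56 (lost in 3 of 9 repeats, adjusted p up to 0.0522 without 4-week array 1). Hp, Trf and Apoa1 were not called, nor was Cp, the acute-phase copper protein ceruloplasmin, with a change of 0.67 (adjusted p = 0.116).

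The count of falls was 18 without 4-week array 1, the lowest of the 9 repeats, 21 at most, and 19 after quantile scaling, and 18 of the 20 calls were kept whichever array was left out. With only the brighter 60% of probe sets tested, 2 fell, as that filter kept 8 of the 32 genes and 2 of the 20 that had fallen. In the OVA arrays, which were compared with the same arrays labelled control, 13 of the 32 genes were lower and 0 higher, against 0.539% of all autosomal genes lower. Hpx had −1.88 there, Alb −1.13 and Rbp4 −1.74. Between the 4-week and OVA arrays themselves 2 of the 32 were lower at 4 weeks, F2 (−0.48, adjusted p = 0.0223) and Orm2, an orosomucoid gene with close copies that may share probes (−0.41, adjusted p = 0.0325).

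Some other genes known for their use in liver fell too, several of them far from the bright end of the array. They are single genes and not a list, so they give no count for liver genes as a whole. The carboxylesterases Ces1a and Ces1e, given below, went the other way (0.92 and 0.65). Cyp4a14, a fatty acid hydroxylase of the P450 family, is also among the female-biased genes above. It was at 5.11, 5.42 and 5.12 against 3.31, 3.49 and 3.83, a change of −1.68 (SE 0.13, adjusted p = 0.000909 in limma). Hnf4a, a transcription factor of hepatocytes and gut epithelium, had −0.42 (adjusted p = 0.0142). Slc38a4, an amino acid transporter, had −1.11, and Tdo2, the tryptophan-degrading dioxygenase, −1.23; both were chosen after their values were seen. Fabp1, the liver fatty acid binding protein, was at 4.22, 5.09 and 3.66 against 2.92, 2.84 and 3.03 (−1.39, adjusted p = 0.0157); its call was lost in 1 of 9 repeats, adjusted p up to 0.0558 without 4-week array 2. Bhmt, which remethylates homocysteine, was measured by 3 probe sets, of which 2 fell, with changes down to −1.55. Of the 31 genes of fatty acid oxidation and PPAR targets, 2 fell and 2 rose, with 0 rises after quantile scaling or without control array 2, control array 3, 4-week array 2 or 4-week array 3. Whether the arrays labelled control held RNA of another tissue was not tested.

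**Figure D3:**
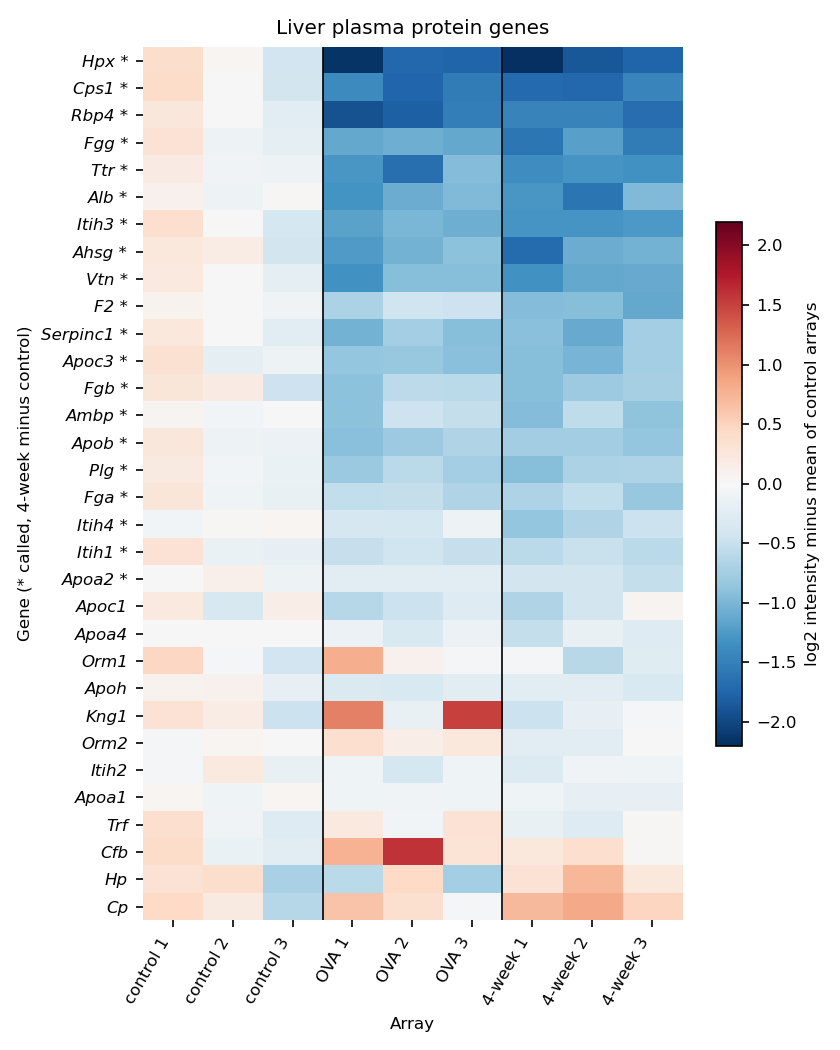
Each cell is the log2 level of a plasma protein gene (rows, ordered by change) on 1 of the 9 arrays (columns) minus the mean of the arrays labelled control, blue for lower and red for higher; asterisks mark the 20 called genes of 32. The 4-week and OVA columns are blue for the called genes, from Hpx at the top, while Cp, Hp and Cfb at the bottom are not called.

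Circadian clock genes changed in both directions. In the clock, BMAL1 (encoded by Arntl) and CLOCK activate the Per, Cry, Nr1d1 and Dbp genes, and NR1D1 represses Arntl and Nfil3 in turn, so that the activated genes and Arntl peak at opposite times of day. Nr1d1 was at 9.37, 9.11 and 8.86 on the arrays labelled control and at 7.18, 7.02 and 7.33 on the 4-week arrays. Dbp, a clock output transcription factor, was at 8.01, 7.82 and 7.75 against 6.88, 6.72 and 6.92. Arntl was at 6.85, 6.997 and 6.63 against 7.35, 7.77 and 7.36. None of these overlapped between the groups, with the repressor and Dbp low and Arntl high at 4 weeks. Nr1d1 fell by 1.94 on the log2 scale (SE 0.13, adjusted p = 0.000556 in limma), or 3.84-fold, and Dbp by 1.02 (SE 0.12, adjusted p = 0.00239).

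Arntl rose by 0.66 (adjusted p = 0.0231 in limma; lost in 3 of 9 repeats, adjusted p up to 0.0703 without control array 3). Per2, a repressor of the clock, was at 7.52, 7.59 and 7.98 against 8.17, 8.16 and 8.15, and Nfil3, the counterpart of Dbp at shared sites, at 6.15, 6.81 and 7.01 against 7.28, 7.58 and 7.19. Their changes were 0.46 and 0.69, with calls that were lost in 6 of 9 repeats, adjusted p up to 0.118 without control array 2 for Per2 and lost in 8 of 9 repeats, adjusted p up to 0.145 without 4-week array 2 for Nfil3. Per1 had 0.38 (adjusted p = 0.105). In all, 3 of 19 clock genes rose and 2 fell; the falls of Nr1d1 and Dbp were called in every setting, and the rises numbered 1 after quantile scaling and 0 without control array 1. On the OVA arrays Nr1d1 was at 8.34, 8.53 and 8.42, −1.26 being the change from OVA to 4 weeks (adjusted p = 0.00352). The hour of collection is not in the labels, and its part in these changes was not tested.

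Genes known to respond to glucocorticoids, the adrenal hormones that themselves follow the time of day and stress, rose in part. Of 18 such genes, 7 rose and 1 fell, with a median of 0.42, against 6.63% of autosomal genes rising. Sgk1, the serum and glucocorticoid regulated kinase, was at 7.84, 7.82 and 7.80 on the arrays labelled control and at 8.63, 8.99 and 8.65 on the 4-week arrays (0.94, SE 0.12, adjusted p = 0.00323 in limma), with no overlap. Fkbp5, a chaperone that damps the glucocorticoid receptor, was at 6.04, 5.84 and 6.09 against 6.48, 6.82 and 6.43 (0.58; lost in 1 of 9 repeats, adjusted p up to 0.0549 without control array 2). Ddit4, an mTOR inhibitor, had 0.61 (lost in 1 of 9 repeats, adjusted p up to 0.0523 without 4-week array 2) and Klf9 0.52 (lost in 3 of 9 repeats, adjusted p up to 0.0789 without control array 3). Tat, tyrosine aminotransferase, was the gene that fell (−0.66, lost in 3 of 9 repeats, adjusted p up to 0.0955 without 4-week array 2). The count of rises was 3 without control array 1, control array 2 or 4-week array 2, 4 without control array 3, and 4 after quantile scaling.

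Immediate early genes, which are transcribed within minutes of a stimulus, were higher at 4 weeks in 6 of 26 cases and lower in 0. Jun, an AP-1 subunit, was at 8.04, 7.84 and 7.88 on the arrays labelled control and at 8.48, 8.64 and 8.70 on the 4-week arrays. Jund was at 7.30, 7.44 and 7.54 against 8.40, 8.57 and 8.03, and the zinc finger factor Klf6 at 7.29, 7.14 and 6.99 against 7.85, 7.89 and 8.01. All 3 genes were higher on every 4-week array, by 0.69 (adjusted p = 0.00277 in limma), 0.91 (0.00528) and 0.78 (0.00239). Zfp36, which destabilises cytokine mRNAs, had 0.74 (lost in 6 of 9 repeats, adjusted p up to 0.101 without 4-week array 3) and Btg2 0.62 (lost in 6 of 9 repeats, adjusted p up to 0.0917 without 4-week array 2). The median of the group was 0.26. Without control array 2, 4-week array 2 or 4-week array 3 the count of rises was 3.

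Both interleukin 1 genes rose. Il1b, the cytokine of early inflammation, was at 6.09, 5.59 and 5.30 on the arrays labelled control, 7.68, 8.33 and 7.55 on the OVA arrays and 6.98, 7.41 and 7.25 on the 4-week arrays. Il1a, its relative released by damaged epithelium, was at 4.12, 4.01 and 3.58, 4.90, 5.38 and 5.48 and 4.85, 5.19 and 4.88. For both genes every 4-week array was above every array labelled control. Il1b rose by 1.55 at 4 weeks (SE 0.24, 2.93-fold, adjusted p = 0.00624 in limma) and Il1a by 1.07 (SE 0.19, adjusted p = 0.00861). Ccl9, a chemokine of monocytes and dendritic cells, was at 6.96, 6.70 and 7.08 against 7.89, 8.70 and 8.60 (1.48, adjusted p = 0.00531).

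The wider acute inflammatory group, 29 cytokines, chemokines and regulators of NF-kappaB, had 4 members higher and 0 lower at 4 weeks, with a median of 0.07. On the OVA arrays 8 were higher, with a median of 1.10 from the same arrays labelled control. The other rises at 4 weeks were Osmr, the oncostatin M receptor (0.53; lost in 5 of 9 repeats, adjusted p up to 0.101 without 4-week array 2), and Nfkbia, the inhibitor of NF-kappaB (0.88; lost in 7 of 9 repeats, adjusted p up to 0.127 without 4-week array 2). The neutrophil chemokine Cxcl2 had 0.02 at 4 weeks and 2.15 on the OVA arrays, Ccl20 0.30 and 2.49, and Socs3, an inhibitor of cytokine signalling, −0.02 and 1.10. Of these, the 4-week arrays were lower than the OVA arrays for Osmr (−1.05, adjusted p = 0.00515 in limma), Cxcl2 (−2.14, 0.0344), Ccl20 (−2.19, 0.0397) and Socs3 (−1.12, 0.0313). The acute inflammatory count fell to 2 without control array 2, control array 3, 4-week array 2 or 4-week array 3. Of 17 Toll-like receptors and sensors 1 rose, Tlr4, the endotoxin receptor (0.62; lost in 4 of 9 repeats, adjusted p up to 0.0876 without 4-week array 2). Its co-receptor Cd14 had 1.05 (adjusted p = 0.0534), and of 26 interferon-induced genes only Rsad2 rose (0.74; lost in 4 of 9 repeats, adjusted p up to 0.0777 without 4-week array 2).

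**Figure D4:**
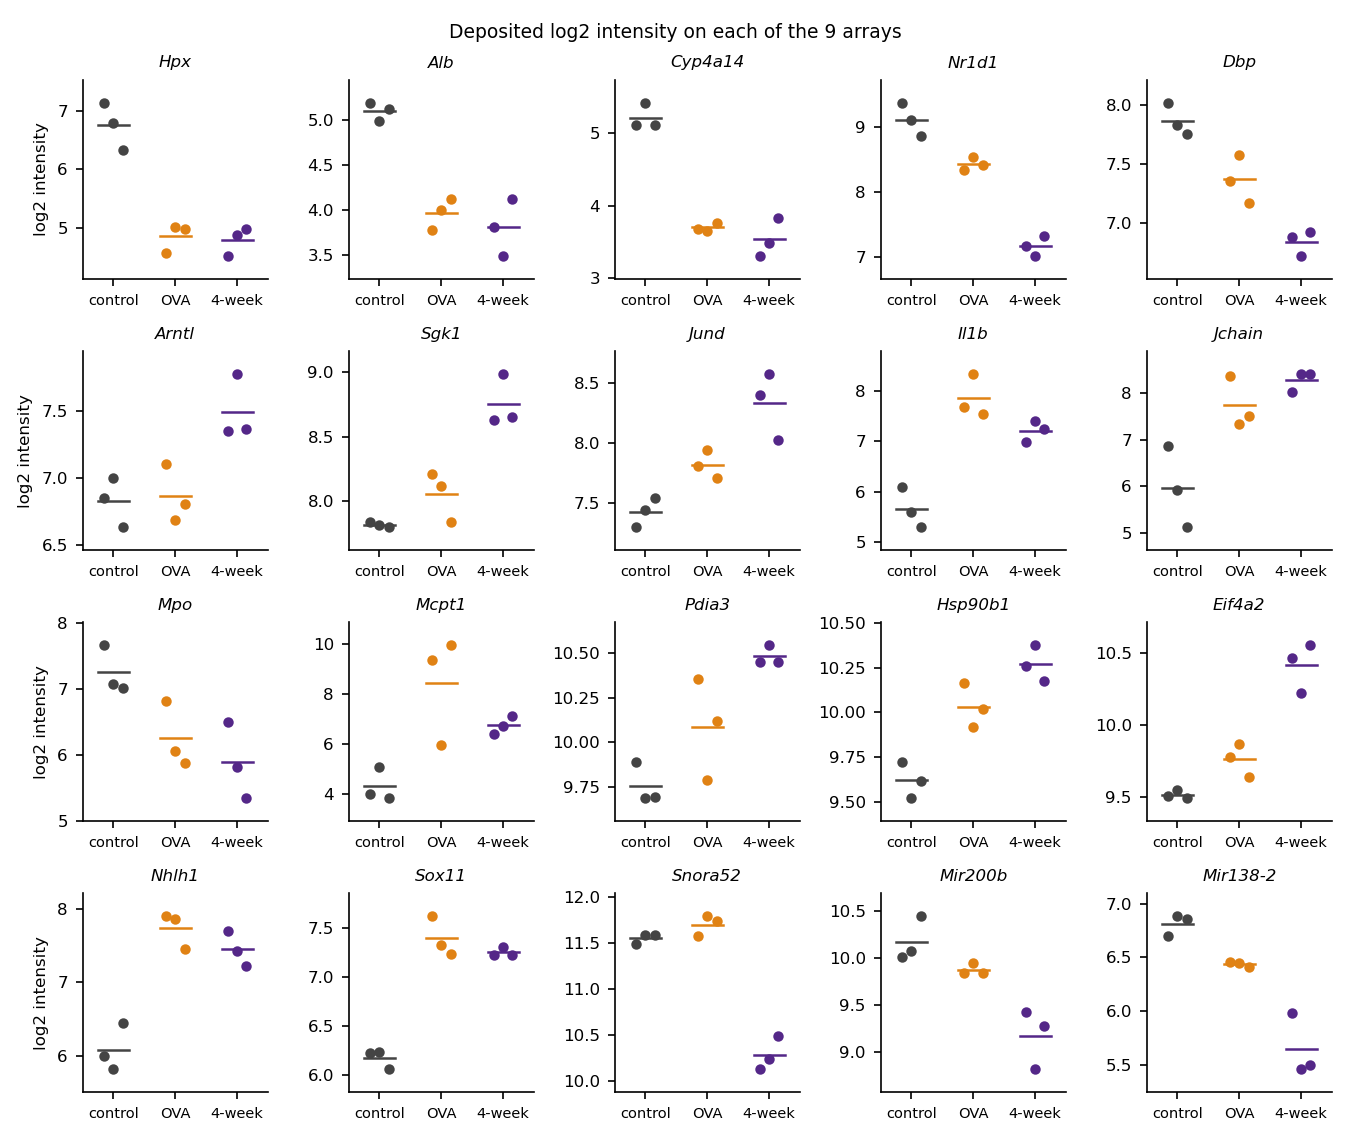
Deposited log2 level (vertical axes, a separate range in each panel) of 20 genes on the 3 arrays labelled control (grey), the 3 OVA arrays (orange) and the 3 4-week arrays (purple); points are arrays and lines group means. Nr1d1 is lowest and Eif4a2 highest on all 3 4-week arrays, while Il1b is high on the OVA and 4-week arrays and Mcpt1 is spread widely on the OVA arrays.

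The genes that define allergic inflammation were not called at 4 weeks. Of 14 type 2 cytokines, alarmins and their receptors none was called in either direction; the values were −0.09 for Il4, −0.16 for Il5, −0.14 for Il13 (adjusted p = 0.506 in limma), −0.51 for the epithelial alarmin Il33 and −0.23 for Tslp. Il13 and Il33 were nevertheless lower on every 4-week array than on any array labelled control. The 95% intervals of these changes were −0.40 to 0.21 for Il4, −0.41 to 0.09 for Il5 and −0.47 to 0.18 for Il13, so the data do not show that they were equal. Of 27 genes induced or repressed by IL-4 and IL-13, 1 rose: Agr2, a disulfide isomerase needed to fold mucins, was at 10.51, 10.36 and 10.43 against 10.99, 11.08 and 11.53 (0.77, SE 0.15, adjusted p = 0.0119). Retnla, a product of alternatively activated macrophages, had 0.07 at 4 weeks and 2.62 on the OVA arrays, neither called. The chitinase-like Chil4 had 0.02, the goblet cell product Clca1 0.26, the mucins Muc5ac and Muc5b 0.21 and 0.34, and the eosinophil chemokines Ccl11 and Ccl24 −0.16 and −0.04. None of the 10 eosinophil markers was called, the granule genes Epx and Prg2 having −0.17 and −0.40. The counts of calls in the cytokine and eosinophil groups were 0 as deposited, after quantile scaling and after median centring, while 1 cytokine group member was lower without control array 1.

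Mast cell proteases had the largest changes among the allergy markers, without passing. Mcpt1, the main protease of mucosal mast cells, was at 4.02, 5.08 and 3.83 on the arrays labelled control and at 6.42, 6.71 and 7.10 on the 4-week arrays, and Mcpt2, its neighbour and close relative, at 4.26, 4.20 and 3.74 against 6.53, 6.35 and 6.35. The groups did not overlap for either gene, with every 4-week array high. The changes were 2.43 (SE 0.88, adjusted p = 0.0938 in limma) and 2.34 (SE 0.77, adjusted p = 0.0726), and the 2 genes are alike enough in sequence for their probes to share signal. The OVA arrays had 9.37, 5.98 and 9.95 for Mcpt1, a wide spread that enters the error of the fit. With the 6 arrays of the comparison alone, the adjusted p was 0.0155 for Mcpt1 and 0.00483 for Mcpt2. The adjusted p after quantile scaling was 0.104 and 0.0767. Of the other markers of mast cells and basophils, Kit, the stem cell factor receptor, rose (0.56; lost in 6 of 9 repeats, adjusted p up to 0.118 without 4-week array 2), while Mcpt8, a basophil protease (−0.46; lost in 4 of 9 repeats, adjusted p up to 0.0777 without 4-week array 2), and Mrgprb1 (−0.44; lost in 3 of 9 repeats, adjusted p up to 0.0814 without control array 3) fell. After quantile scaling 0 of the group fell.

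Of the 16 B and plasma cell markers 2 rose, Jchain and Xbp1, and none fell, with a median of 0.07. Jchain, which joins the subunits of IgA and IgM for secretion, was at 6.87, 5.93 and 5.13 on the arrays labelled control and at 8.03, 8.40 and 8.41 on the 4-week arrays, with no overlap (2.31, SE 0.41, 4.95-fold, adjusted p = 0.00919 in limma). On the OVA arrays it was at 8.37, 7.34 and 7.502, a change of 1.76 that was not called (adjusted p = 0.0818). Among the 11 immunoglobulin genes measured, 3 rose, none fell, and the median change was 1.12. The kappa variable genes Igkv5-43, Igkv8-30 and Igkv4-55 had 1.33, 1.44 and 1.90, with values of 4.77, 4.60 and 4.67 against 7.95, 5.89 and 5.91 for Igkv4-55. Their calls depended on single arrays: Igkv5-43 was lost in 2 of 9 repeats, adjusted p up to 0.0663 without control array 2, Igkv8-30 lost in 3 of 9 repeats, adjusted p up to 0.0702 without control array 2 and Igkv4-55 lost in 4 of 9 repeats, adjusted p up to 0.102 without control array 2, and none of the 3 was left without control array 2. Immunoglobulin segments are near copies of each other, so their probe sets may share signal. Igha, the IgA heavy chain, had 1.52 (adjusted p = 0.0836), and of 3 Ighm probe sets 1 rose (1.46; lost in 6 of 9 repeats, adjusted p up to 0.0962 without 4-week array 2). Xbp1, a factor of plasma cells and of the secretory pathway in general, is given with the folding genes below. None of 18 T and NK cell markers rose and Cd5 fell (−0.35; lost in 4 of 9 repeats, adjusted p up to 0.0697 without control array 2).

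Of the 18 neutrophil markers 3 fell, Mpo, Elane and Padi4, and 1, Il1b, rose. The falls numbered 0 without control array 1, control array 2, 4-week array 2 or 4-week array 3 and 2 in each of the other repeats. Prtn3, which encodes proteinase 3 of the primary granules and is not a member of this list, was at 7.44, 6.68 and 6.38 on the arrays labelled control and at 5.80, 5.28 and 5.17 on the 4-week arrays (−1.41, SE 0.26, adjusted p = 0.0105 in limma). Mpo, myeloperoxidase, was at 7.66, 7.08 and 7.02 against 6.50, 5.81 and 5.34 (−1.37; lost in 5 of 9 repeats, adjusted p up to 0.0828 without 4-week array 2), and Elane, neutrophil elastase, had −1.14 (lost in 5 of 9 repeats, adjusted p up to 0.0815 without 4-week array 2). Both enzymes are also of the primary granules, which are made in precursor cells. Padi4, a peptidylarginine deiminase, had −0.44 (lost in 8 of 9 repeats, adjusted p up to 0.145 without 4-week array 2). The groups did not overlap for Prtn3 and Mpo. Markers of mature neutrophils were not called: S100a8 had −0.98, S100a9 −0.14, Ly6g −1.35, Camp −0.996 and Ltf 0.70. Nasal tissue lies against bone, whose marrow makes such precursors; of 14 bone and cartilage markers 1 rose and 0 fell, and the part of marrow in the arrays was not tested. No monocyte or macrophage marker of 18 was called, and of 17 MHC class II and dendritic cell genes H2-DMa (−0.46; lost in 3 of 9 repeats, adjusted p up to 0.0718 without control array 3) and Zbtb46 (−0.28; lost in 8 of 9 repeats, adjusted p up to 0.138 without 4-week array 2) fell.

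Genes of protein folding in the endoplasmic reticulum (ER), where secreted and membrane proteins are made, rose widely. Of 24 such genes 11 rose and 0 fell, with a median of 0.41, against 6.63% of autosomal genes rising. The group's median level of 8.89 lay in the brightest bin, where 666 of 3821 genes rose. Hsp90b1, the ER chaperone GRP94, was at 9.72, 9.52 and 9.62 on the arrays labelled control and at 10.26, 10.38 and 10.18 on the 4-week arrays. Pdia3, a disulfide isomerase, was at 9.89, 9.69 and 9.69 against 10.45, 10.54 and 10.45, and Xbp1, which drives the expansion of the secretory pathway, at 10.03, 10.25 and 10.33 against 10.72, 10.74 and 10.67. Every 4-week array was above every array labelled control for these genes. The changes were 0.65 for Hsp90b1 (SE 0.09, adjusted p = 0.004 in limma), 0.72 for Pdia3 (SE 0.13, adjusted p = 0.01) and 0.51 for Xbp1 (SE 0.08, adjusted p = 0.00717).

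Canx, the lectin chaperone calnexin, was at 11.03, 10.77 and 10.90 against 11.32, 11.31 and 11.30 (0.41, adjusted p = 0.0144 in limma). Its soluble partner Calr was at 10.35, 10.22 and 10.38 against 10.72, 10.96 and 10.57 (0.44; lost in 5 of 9 repeats, adjusted p up to 0.083 without control array 2), and Dnajc3, a co-chaperone, at 8.93, 8.87 and 8.72 against 9.30, 9.47 and 9.13 (0.46; lost in 4 of 9 repeats, adjusted p up to 0.083 without 4-week array 2). Edem1 and Sel1l, which pass misfolded proteins on for degradation, had 0.57 (lost in 5 of 9 repeats, adjusted p up to 0.0996 without 4-week array 2) and 0.39 (lost in 4 of 9 repeats, adjusted p up to 0.0907 without control array 2). Hspa5, the chaperone BiP, had 0.33 (adjusted p = 0.0887), and Ddit3, the factor CHOP that is induced in ER stress, −0.08; neither was called. The count of rises was 7 after quantile scaling, 4 without control array 2 or 4-week array 2, 6 without 4-week array 1 and 7 without control array 1 or control array 3. On the OVA arrays 1 of the genes was higher, and the group's median there was 0.36.

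The start regions of these ER genes are shown because many share a known element. The ER stress response element is a motif of CCAAT and CCACG separated by 9 bases, bound by ATF6 and XBP1 together with NF-Y. It was searched on both strands in the 250 bases before the start of each gene in RefSeq's GRCm38.p6 table. Of 14959 autosomal genes with such a region, 20 (0.134%) held it. Of the ER folding genes, 4 of 9 called genes with a region held it (Hsp90b1, Calr, Canx and Dnajc3) and 3 of 13 not called (Creld2, Hspa5 and Pdia6). The match therefore occurs on both sides of the call, and it is a match of letters only. Below, the 250 bases are written 5′ to 3′ on the gene's strand, with the motif in capitals (on the opposite strand it reads CGTGG to ATTGG). Hsp90b1 lies on the minus strand at chr10:86705445-86705694, with motifs starting 212 and 107 bases before the start. Calr lies on the minus strand at chr8:84846932-84847181 with the motif 162 bases before the start, Canx on the minus strand at chr11:50325674-50325923 with the motif at 145, and Dnajc3 on the plus strand at chr14:118937682-118937931 with the motif at 105.
Hsp90b1: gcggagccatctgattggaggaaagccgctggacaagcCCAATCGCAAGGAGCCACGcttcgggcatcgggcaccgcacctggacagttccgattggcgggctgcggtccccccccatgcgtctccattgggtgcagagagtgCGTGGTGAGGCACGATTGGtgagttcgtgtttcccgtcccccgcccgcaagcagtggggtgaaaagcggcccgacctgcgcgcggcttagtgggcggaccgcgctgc
Calr: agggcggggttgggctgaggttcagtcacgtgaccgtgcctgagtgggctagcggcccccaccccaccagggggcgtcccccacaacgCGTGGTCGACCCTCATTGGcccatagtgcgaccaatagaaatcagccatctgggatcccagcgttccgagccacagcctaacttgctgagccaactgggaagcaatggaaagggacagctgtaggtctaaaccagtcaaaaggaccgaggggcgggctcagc
Canx: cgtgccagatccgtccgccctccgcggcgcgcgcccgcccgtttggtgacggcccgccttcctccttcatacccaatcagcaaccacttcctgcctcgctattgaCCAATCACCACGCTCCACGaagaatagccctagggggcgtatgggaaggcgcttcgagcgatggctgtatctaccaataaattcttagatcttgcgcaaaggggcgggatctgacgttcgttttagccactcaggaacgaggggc
Dnajc3: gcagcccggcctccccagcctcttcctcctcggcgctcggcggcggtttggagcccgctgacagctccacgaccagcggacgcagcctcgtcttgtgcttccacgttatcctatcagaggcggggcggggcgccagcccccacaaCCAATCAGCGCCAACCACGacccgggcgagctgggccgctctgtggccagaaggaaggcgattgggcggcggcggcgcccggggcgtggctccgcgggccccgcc

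Elements known for other gene groups were searched in the same windows. The heat shock element, searched as GAA, TTC and GAA with 2 bases between them, was in 0 of 9 called heat shock genes and 2 of 19 not called (Hspd1 and Hspe1), beside 0.448% of all genes. The E-box CACGTG, bound by CLOCK and BMAL1, was in 0 of 4 called clock genes and 5 of 12 not called, beside 8.14% of all, and AGGTCA, the core site of NR1D1, in 1 of 4 (Nfil3) and 3 of 12, beside 14.4%. The HNF1 site, GTTAAT and ATTAAC around 1 base, was in 0 of 16 called plasma protein genes and 0 of 6 not called. These windows are short, and the absence of the letters says nothing about the factors.

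Cytosolic chaperones rose alongside. Of 33 heat shock and chaperone genes 12 rose and 0 fell, with a median of 0.23. Their median level of 8.01 also lay in the brightest bin, where 666 of 3821 genes rose. Dnaja1, an HSP70 co-chaperone, was at 8.37, 8.35 and 8.37 on the arrays labelled control and at 9.16, 8.95 and 8.89 on the 4-week arrays (0.64, SE 0.08, adjusted p = 0.00265 in limma). Cct4, a subunit of the chaperonin that folds actin and tubulin, was at 8.63, 8.25 and 8.21 against 8.99, 9.13 and 9.04 (0.69, adjusted p = 0.0063). Both were higher on every 4-week array. Hsph1, an HSP70 exchange factor, had 0.66, Ahsa1, an HSP90 activator, 0.59, the inducible Hspa1a 0.43 and Hspa4 0.42. The count of rises was 8 after quantile scaling, 6 without 4-week array 2 and 7 without control array 2 or control array 3.

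Proteasome subunits rose in part. Of 39 subunit and assembly genes of this protease complex, 15 rose and 1 fell, with a median of 0.23. Their median level of 8.04 was again in the brightest bin, where 666 of 3821 genes rose. Psmb4, a subunit of the catalytic core, was at 9.87, 9.54 and 9.54 against 10.18, 10.19 and 10.15 (0.52, SE 0.09, adjusted p = 0.00904 in limma), and Psmd5, a chaperone of the regulatory particle, at 7.07, 7.05 and 7.25 against 7.65, 7.65 and 7.91 (0.61, SE 0.10, adjusted p = 0.00639). Neither gene overlapped between the groups. Of the core, Psma2 had 0.44; of the regulatory particle, Psmd4 had 0.41, Psmd7 0.43 and Psmd8 0.43. Psmd9, an assembly chaperone, fell (−0.43; lost in 1 of 9 repeats, adjusted p up to 0.0625 without 4-week array 2). After quantile scaling 10 rose and 4 fell, and the rises numbered 8 without control array 2 and 9 without control array 3.

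The translation machinery was higher at 4 weeks than in the arrays labelled control and than in the OVA arrays. Of 30 translation factors 14 rose and 0 fell from the arrays labelled control (median 0.32), and 12 rose and 0 fell from the OVA arrays. Eif4a2, a helicase of the initiation complex, was at 9.51, 9.55 and 9.49 on the arrays labelled control, 9.78, 9.87 and 9.64 on the OVA arrays and 10.47, 10.22 and 10.56 on the 4-week arrays. Naca, which attends the nascent chain, was at 8.85, 8.95 and 8.81, 8.84, 8.95 and 8.71 and 9.50, 9.59 and 9.55. Both genes separated the 4-week arrays from each of the other groups. Eif4a2 rose by 0.90 (SE 0.10, adjusted p = 0.00236 in limma) and by 0.65 from OVA (adjusted p = 0.00884), and Naca by 0.68 (0.00239) and 0.71 (0.00356). Subunits of the EIF3 scaffold rose as well, Eif3k by 0.68, Eif3c by 0.63, Eif3e by 0.62 and Eif3a by 0.59. The count of rises was 10 after quantile scaling and at least 10 without any 1 array.

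Of 54 cytosolic ribosomal protein genes 17 rose and 2 fell, with a median of 0.18. From the OVA arrays 16 rose and 0 fell, beside 2.62% of autosomal genes rising. Their median level of 9.46 lay in the brightest bin, where 666 of 3821 genes rose from the arrays labelled control. Rpl4, a large-subunit protein, was at 9.24, 9.31 and 9.09 on the arrays labelled control and 9.86, 9.84 and 9.86 on the 4-week arrays (0.64, SE 0.07, adjusted p = 0.00239 in limma). Rps25, of the small subunit, was at 9.19, 9.31 and 9.04 against 9.93, 9.85 and 9.85 (0.70, SE 0.08, adjusted p = 0.00239), and all 6 of its probe sets rose. Rps19, also of the small subunit, went the other way, at 9.24, 8.89 and 8.75 against 7.94, 8.05 and 8.09 (−0.93, adjusted p = 0.004). None of the 3 overlapped between the groups. Ribosomal protein genes have many processed pseudogenes whose transcripts may share probes. After quantile scaling 11 rose and 4 fell, with a median of 0.04, and without 4-week array 2 the rises numbered 11. Ncl, the nucleolar protein nucleolin, was at 8.91, 8.84 and 8.79 against 9.53, 9.48 and 9.36 (0.61, adjusted p = 0.00239), and of 48 ribosome biogenesis genes 8 rose, a count of 6 after quantile scaling, 2 without control array 2, control array 3 or 4-week array 2 and 3 without 4-week array 1.

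The respiratory chain did not move one way. Of 79 nuclear genes of its complexes 11 rose and 4 fell as deposited, and 4 rose and 9 fell after quantile scaling. Among the steady calls of the complex I genes, Ndufa6 had 0.69 and Ndufv2 0.51, and Ndufs4 −0.62 and Ndufs7 −0.56. The rises numbered 6 without control array 2 or 4-week array 2 and 7 without control array 3 or 4-week array 1. Of 77 mitochondrial ribosomal protein genes 7 rose and 4 fell, near the background shares. The rises numbered 2 without control array 3 or 4-week array 1, 3 without control array 2 or 4-week array 2 and 4 without OVA array 2. The falls numbered 0 without control array 3 or 4-week array 2 and 1 or 2 in each of the other repeats. 1 of them, Mrps21, was among the largest rises of the comparison: it was at 8.53, 8.15 and 8.40 on the arrays labelled control, 9.24, 9.18 and 8.97 on the OVA arrays and 10.13, 10.27 and 9.75 on the 4-week arrays (1.69, SE 0.15, 3.22-fold, adjusted p = 0.00107 in limma), the 4-week arrays standing above all others.

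Small nucleolar RNAs (snoRNAs), which guide chemical modification of ribosomal RNA and are mostly cut from introns of other genes, fell more often than they rose. Of 51 measured snoRNAs 11 fell and 3 rose from the arrays labelled control. Against the OVA arrays 23 fell and 1 rose, beside 2.58% and 2.62% of autosomal genes, and the OVA arrays had 6 higher and 0 lower than the arrays labelled control. Snora52, a guide of pseudouridylation, was at 11.49, 11.58 and 11.58 on the arrays labelled control, 11.57, 11.79 and 11.74 on the OVA arrays and 10.13, 10.25 and 10.49 on the 4-week arrays (−1.26, SE 0.10, adjusted p = 0.000909 in limma). Snora3 was at 8.27, 8.71 and 8.75, 8.85, 9.04 and 8.97 and 7.53, 7.20 and 7.59, and Snord33, a guide of ribose methylation, at 6.97, 7.69 and 7.78, 7.70, 7.89 and 7.53 and 6.19, 6.21 and 6.08. The 4-week arrays were below all others for these RNAs. Snora3 fell by 1.14 and Snord33 by 1.32 on the log2 scale. Snord82 rose instead, from 9.56, 9.73 and 9.67 to 10.26, 10.28 and 10.55 (0.71, adjusted p = 0.00339).

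Host genes of the snoRNAs were called in some cases and not in others. Of 14 called snoRNAs, 5 lay within the RefSeq span of exactly 1 tested protein-coding gene, and the rest were not followed. Strand was not used, and these host genes were chosen for their position. Snora3 fell within Rpl27a, which rose by 0.52 (adjusted p = 0.00525 in limma), and Snora52 fell within Rplp2, which had 0.03 (adjusted p = 0.828). Snord82 rose with Ncl, its host. The fall of Snord8 was lost in 4 of 9 repeats, adjusted p up to 0.0703 without 4-week array 2. The hosts Chd8 of Snord8 (0.11) and Rpl23a of Snord42b (0.14) were not called. Thus 1 of 5 hosts was called in the same direction, 1 in the opposite one and 3 were not called. Of all autosomal genes 13.3% were called. The falls numbered 12 after quantile scaling and at least 8 without any 1 array. The columns of the extraction kit named in the labels retain mainly longer RNA, and the part that small-RNA recovery had in these values was not tested.

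Probe sets of microRNA genes also fell more often than they rose. MicroRNAs are cut from hairpin precursors and repress mRNAs that pair with bases 2 to 8 of the mature strand, the seed. Sequences are shown for the members that the values below turn on, because microRNAs with 1 seed share most of their targets. They are the mature strands in RefSeq's table for GRCm38.p6, 5′ to 3′, with the seed in capitals.
miR-200b-3p: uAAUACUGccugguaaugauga
miR-200c-3p: uAAUACUGccggguaaugaugga
miR-200a-3p: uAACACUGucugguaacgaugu
miR-141-3p: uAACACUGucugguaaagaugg
miR-183-5p: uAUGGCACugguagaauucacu
miR-182-5p: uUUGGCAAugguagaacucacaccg
miR-138-5p: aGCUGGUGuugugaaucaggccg
miR-103-3p: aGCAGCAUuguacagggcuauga

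The microRNA group was added after the values were seen, so its count is a description. Of 257 measured microRNA genes 33 fell and 2 rose (12.8% and 0.778%, against 6.66% and 6.63% of autosomal genes), with a median of −0.16. Their median level of 4.55 lay in the dimmest bin, where 231 of all autosomal genes fell and 13 rose. After quantile scaling 20 fell and 2 rose, with a median of −0.05. A mature sequence was matched to 231 of the 257, in a search that left out chromosomes 18, X and Y. The miR-200 family holds epithelial cells in their state by repressing ZEB1 and ZEB2 and occurs as 2 seeds, AAUACUG of miR-200b and miR-200c and AACACUG of miR-200a and miR-141. Mir200b was at 10.01, 10.07 and 10.44 on the arrays labelled control and at 9.42, 8.81 and 9.28 on the 4-week arrays (−1.002, SE 0.16, adjusted p = 0.00697 in limma). Mir200a, from the same cluster on chromosome 4, was at 8.29, 8.69 and 8.97 against 8.21, 7.71 and 7.98 (−0.68; lost in 6 of 9 repeats, adjusted p up to 0.117 without 4-week array 2). The groups overlapped for neither gene. The members on chromosome 6 had smaller changes, −0.35 for Mir200c (lost in 6 of 9 repeats, adjusted p up to 0.115 without 4-week array 2) and −0.37 for Mir141 (lost in 9 of 9 repeats, adjusted p up to 0.126 without 4-week array 2), and neither was called after quantile scaling (adjusted p = 0.0518 and 0.135).

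Of the sensory organ cluster on chromosome 6, Mir183 was at 4.27, 4.09 and 4.30 against 3.51, 3.10 and 2.93 (−1.04, adjusted p = 0.0058 in limma) and Mir182 had −0.80 (adjusted p = 0.00453), while Mir96, the third of the cluster, had −0.41 and was not called (adjusted p = 0.105). Mir138-2 was at 6.70, 6.88 and 6.85 against 5.98, 5.46 and 5.501 (−1.16, adjusted p = 0.00239). Mir103-2 had −1.06 (adjusted p = 0.0048) and differed from the OVA arrays too (−1.04, adjusted p = 0.00832). Other genes with these seeds were not called. Mir138-1, which shares the seed GCUGGUG with Mir138-2, had −0.22 (adjusted p = 0.0996 in limma). Mir103-1 and Mir107, which share GCAGCAU with Mir103-2, had −0.34 (0.114) and −0.13 (0.502). The rises were Mir186 (0.97, adjusted p = 0.00667) and Mir7-1 (0.44, adjusted p = 0.00906). Of the 35 called microRNA genes 19 lay inside exactly 1 tested protein-coding gene. The host was called in the same direction for 2 (Nup93 with Mir138-2 and Eml2 with Mir330). It was called in the opposite one for 1 (Pank2 with Mir103-2) and not called for 16. Of all autosomal genes 13.3% were called. The call of Nup93 was lost in 7 of 9 repeats, adjusted p up to 0.114 without 4-week array 2 and that of Eml2 lost in 3 of 9 repeats, adjusted p up to 0.0827 without 4-week array 2. The falls numbered 20 after quantile scaling, 17 without control array 3 or 4-week array 2 and 18 without control array 2 or 4-week array 1. A probe set of a microRNA gene can pick up its precursor or its host as well, and the share of mature microRNA in these signals was not tested.

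**Figure D5:**
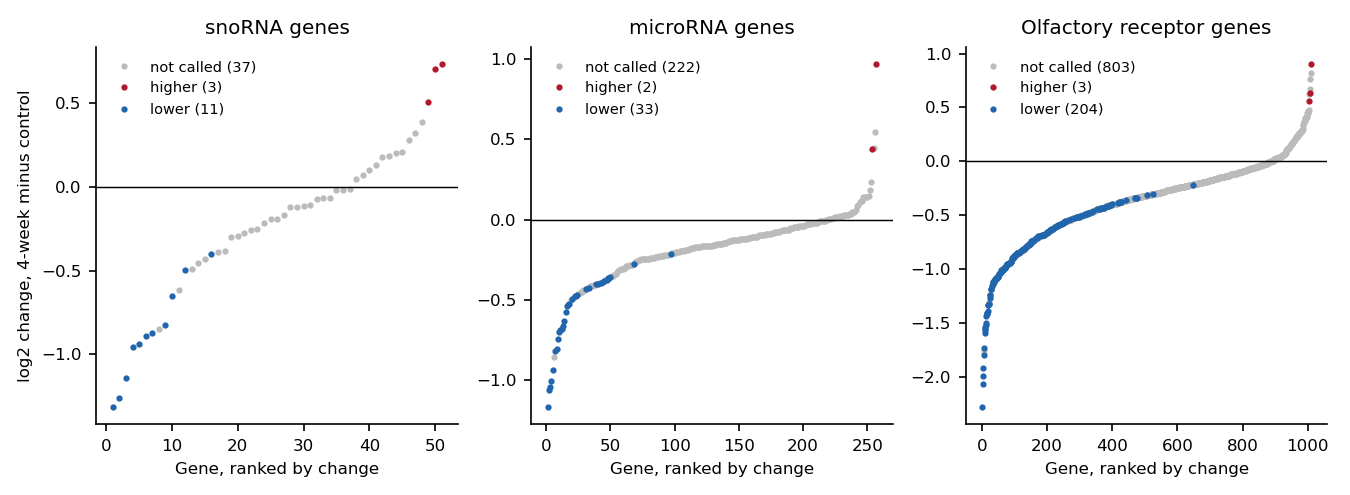
Log2 change (4-week minus control, vertical axes) of every measured snoRNA gene (left, 51), microRNA gene (middle, 257) and olfactory receptor gene (right, 1010), ranked by change; blue points were called lower, red higher and grey not called. The called points lie mostly below 0, with 11, 33 and 204 lower against 3, 2 and 3 higher.

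Olfactory receptor genes, the largest gene family of the mouse, fell. Of 1010 measured, 204 fell (20.2%, against 6.66% of all autosomal genes) and 3 rose, with a median of −0.32. The family's median level was 5.56, 5.64 and 5.72 on the arrays labelled control, 5.19, 5.39 and 5.24 on the OVA arrays and 5.40, 4.99 and 5.30 on the 4-week arrays. The 4-week arrays were thus below the arrays labelled control, with 4-week array 2 lowest. As deposited, the fall was seen at both levels of brightness. Of the 505 brighter receptors 124 fell (median −0.38, after quantile scaling −0.37) and of the 505 dimmer ones 80 (median −0.27, after quantile scaling −0.15). After quantile scaling 108 of the brighter and 35 of the dimmer receptors fell, beside 1319 of 20874 autosomal probe sets. The dimmer receptors then fell at about the share of all probe sets. In the whole family 143 fell after quantile scaling. The count was 71 without 4-week array 2, 109 without control array 2 and 110 without control array 3, and 65 calls were kept in all 9 repeats. On the OVA arrays 48 were lower and 1 higher than on the same arrays labelled control, beside 0.539% and 0.743% of autosomal genes. Between the 4-week and OVA arrays themselves 31 of the 1010 were lower at 4 weeks and 1 higher, with a median of −0.11. The shares of all autosomal genes there were 2.58% lower and 2.62% higher.

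The largest falls of single receptors exceeded 3-fold. Olfr868 was at 6.48, 7.18 and 6.92 on the arrays labelled control and at 5.20, 4.18 and 4.36 on the 4-week arrays (−2.28, SE 0.27, adjusted p = 0.00256 in limma). Olfr843 was at 7.33, 7.51 and 6.78 against 5.59, 4.50 and 5.55 (−1.99, adjusted p = 0.00871), and Olfr1006 at 8.01, 8.27 and 8.02 against 6.66, 5.85 and 6.37 (−1.80, adjusted p = 0.0053). No array overlapped between the groups for these, which were chosen as the largest falls called in all 9 repeats. On the OVA arrays the changes were −2.02, −1.40 and −1.88. The rises were those of Olfr1102 (0.90; lost in 7 of 9 repeats, adjusted p up to 0.109 without control array 2), Olfr1065 (0.63; lost in 4 of 9 repeats, adjusted p up to 0.0714 without 4-week array 1) and Olfr134 (0.56; lost in 6 of 9 repeats, adjusted p up to 0.126 without control array 2). Of 162 vomeronasal receptors 4 fell, of 13 trace amine-associated receptors 0. The falls of vomeronasal receptors numbered 1 after quantile scaling, 0 without control array 3, 4-week array 1 or 4-week array 2, 1 without control array 2, 7 without control array 1 and 9 without 4-week array 3. Receptors of 1 subfamily are similar in sequence, so their probe sets are not independent of each other.

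Markers of newly formed olfactory neurons rose in part. Nhlh1, a transcription factor of neuronal precursors, was at 5.99, 5.81 and 6.44 on the arrays labelled control, 7.90, 7.87 and 7.45 on the OVA arrays and 7.70, 7.43 and 7.23 on the 4-week arrays. Sox11, another, was at 6.22, 6.23 and 6.05, 7.62, 7.33 and 7.23 and 7.22, 7.30 and 7.22, and Stmn1, the microtubule regulator stathmin, at 8.82, 8.88 and 8.89, 10.10, 9.89 and 9.74 and 9.89, 9.71 and 9.67. For all 3, the arrays labelled control were the lowest and did not overlap with the 4-week arrays. At 4 weeks the changes were 1.37 (SE 0.19, adjusted p = 0.004 in limma), 1.08 (SE 0.10, adjusted p = 0.00136) and 0.89 (SE 0.10, adjusted p = 0.00239). Dpysl3, a growth cone protein, had 0.69, Hdac2, a histone deacetylase of young neurons, 0.61, Neurod1 0.76 (lost in 1 of 9 repeats, adjusted p up to 0.055 without control array 2) and Gap43, the growth-associated protein of immature neurons, 0.38 (lost in 5 of 9 repeats, adjusted p up to 0.0788 without control array 3). Gng8, the G protein subunit of immature neurons, had 0.23 (adjusted p = 0.189). In all 7 of 23 progenitor and immature markers rose and 0 fell. The median of the group was 0.18, and 7 of the 23 changes were negative, down to −0.50. The rises numbered at least 5 without any 1 array and 7 after quantile scaling. The falls numbered 1 after quantile scaling and 2 without 4-week array 1. Proliferation genes did not follow as a group, with 3 of 40 higher and 2 lower; the rises ranged from 0 to 4 and the falls from 0 to 3 when 1 array was left out, with 0 rises without control array 1, control array 3, OVA array 2, OVA array 3, 4-week array 1 or 4-week array 2.

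Markers of mature olfactory neurons were lower in part. Slc24a4, the calcium exchanger that ends the odour response, was at 9.83, 9.999 and 10.12 on the arrays labelled control and at 9.38, 8.88 and 8.93 on the 4-week arrays, with no overlap (−0.92, SE 0.13, adjusted p = 0.00453 in limma; −0.59 from OVA, adjusted p = 0.0344). Rtp1, which carries receptors to the cell surface, had −0.63 (lost in 4 of 9 repeats, adjusted p up to 0.0958 without 4-week array 2), Kirrel3, an adhesion protein of sorting axons, −0.68 (lost in 3 of 9 repeats, adjusted p up to 0.0618 without 4-week array 2) and Gnal, the olfactory G protein, −0.44 (lost in 7 of 9 repeats, adjusted p up to 0.112 without 4-week array 2). Grk3, which desensitises receptors, rose (0.47; lost in 7 of 9 repeats, adjusted p up to 0.137 without 4-week array 2). Of 28 mature markers 4 fell and 1 rose, with a median of −0.26. The number of falls was 8 after quantile scaling, 11 without 4-week array 1, 2 without 4-week array 3 and 1 without control array 2, control array 3 or 4-week array 2. Of 28 axon sorting genes Efna3 (−0.78; lost in 3 of 9 repeats, adjusted p up to 0.0589 without control array 2) and Kirrel3 fell and Nrp1, the semaphorin receptor neuropilin 1, rose (0.48; lost in 1 of 9 repeats, adjusted p up to 0.052 without control array 2). The falls of this group numbered 4 after quantile scaling, 0 without control array 2, control array 3 or 4-week array 2, 4 without control array 1 and 6 without 4-week array 1.

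Supporting cells of the olfactory epithelium and nasal glands held few calls. Of 15 sustentacular and Bowman gland genes only Gsta3 rose, a glutathione transferase, from 9.09, 9.06 and 8.88 to 9.62, 9.80 and 9.63 (0.68, SE 0.12, adjusted p = 0.0101 in limma), and none fell as deposited, but 2 did after quantile scaling and 2 without 4-week array 1. None of 8 odorant-binding proteins and lipocalins was called. Among 15 BPI fold proteins Bpifb6 rose (0.42; lost in 5 of 9 repeats, adjusted p up to 0.0852 without control array 2). Its relative Bpifb9a was at 9.87, 11.57 and 12.10 on the arrays labelled control and 9.89, 7.74 and 8.33 on the 4-week arrays, overlapping and not called (−2.53, adjusted p = 0.0863). Of 23 gland products Car6, a secreted carbonic anhydrase, rose (1.12; lost in 8 of 9 repeats, adjusted p up to 0.135 without 4-week array 2) and Dcpp2 fell (−0.56; lost in 2 of 9 repeats, adjusted p up to 0.0551 without control array 2). Of 52 genes of solitary chemosensory cells 1 rose as deposited, 4 after quantile scaling, 2 without OVA array 3 and 3 without 4-week array 1. The rise in all these settings was that of Gnat3, the taste G protein gustducin, from 3.67, 3.58 and 3.55 to 4.23, 4.23 and 4.19 (0.62, SE 0.06, adjusted p = 0.00205).

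Xenobiotic metabolism is strong in the olfactory mucosa. Of 85 cytochrome P450 genes 12 fell and 3 rose; among the falls called in all 9 repeats were Cyp2c70 (−0.52), Cyp2c54 (−0.47), Cyp2d26 (−0.45) and Cyp2d34 (−0.46), with Cyp4a14 above. Cyp2j6, an epoxygenase, rose from 7.83, 7.96 and 7.94 to 8.57, 8.49 and 8.58 (0.64, SE 0.09, adjusted p = 0.00375 in limma). The falls numbered 8 after quantile scaling, 6 without 4-week array 2 and 7 without control array 3. Of 79 conjugating and hydrolysing enzymes 10 rose and 2 fell. The carboxylesterase Ces1a was at 10.34, 10.40 and 10.68 against 11.27, 11.34 and 11.56 (0.92, adjusted p = 0.00394) and Ces1e at 6.97, 6.86 and 6.96 against 7.55, 7.57 and 7.62 (0.65, adjusted p = 0.00239). Both were higher on every 4-week array; the Ces1 genes are neighbouring copies whose probe sets may share signal. Against the OVA arrays 13 of these enzymes rose and 0 fell. From the arrays labelled control 7 rose and 6 fell after quantile scaling, so that the direction of this group rested on the scaling. The rises numbered 4 without control array 2, 5 without control array 3 and 6 without 4-week array 2.

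Respiratory epithelial genes rose in a few cases. Epcam, the adhesion molecule of epithelia, was at 9.02, 8.80 and 8.70 on the arrays labelled control and at 9.40, 9.44 and 9.48 on the 4-week arrays (0.60, SE 0.10, adjusted p = 0.00792 in limma). Ehf, an ETS factor of secretory epithelium, was at 9.51, 9.31 and 9.05 against 9.83, 10.44 and 10.10 (0.83, adjusted p = 0.013), and Itga6, the integrin of basal cells, had 0.54. Krt18 had 0.48, a call that did not hold after quantile scaling (adjusted p = 0.0941). Of 22 respiratory basal and secretory genes 4 rose and 1 fell. Agr2 was the only called gene of 23 mucin and goblet cell genes.

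Glycosyltransferases included some of the larger rises. C1galt1, which extends the O-glycans of mucins, was at 7.95, 7.78 and 7.78 against 8.63, 9.04 and 8.66 (0.94, SE 0.15, adjusted p = 0.00666 in limma). Mgat4a, which branches N-glycans, was at 7.89, 7.68 and 7.37 against 8.83, 9.63 and 8.88 (1.46, SE 0.22, adjusted p = 0.00528). B4galnt2, which caps glycans, was at 4.80, 4.82 and 4.81 against 6.26, 7.19 and 5.51 (1.51; lost in 2 of 9 repeats, adjusted p up to 0.0598 without control array 2). The arrays labelled control were below the 4-week arrays for all 3. Of 56 such genes 5 rose and 2 fell, close to the background, and the rises numbered 2 without control array 2 or 4-week array 2 and 3 without control array 3, 4-week array 1 or 4-week array 3.

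Genes of the extracellular matrix held few calls. None of 39 collagen genes rose and 4 fell, each by little, from −0.34 (Col13a1; lost in 4 of 9 repeats, adjusted p up to 0.0842 without control array 2) to −0.31 (Col9a2; lost in 1 of 9 repeats, adjusted p up to 0.0509 without 4-week array 2). The falls numbered 1 without control array 2 and 2 without control array 1 or any of the 4-week arrays. Ccn2, connective tissue growth factor, was at 8.64, 8.96 and 8.55 on the arrays labelled control and at 9.48, 9.40 and 9.43 on the 4-week arrays (0.72, SE 0.10, adjusted p = 0.00438 in limma), with 0.66 on the OVA arrays. Ccn1, its relative, had 0.94 (lost in 1 of 9 repeats, adjusted p up to 0.0522 without 4-week array 2) and rose from the OVA arrays by 1.13 (adjusted p = 0.0138). Of 33 metalloproteinases, inhibitors and matricellular genes 4 rose and 0 fell, with 1 rise without 4-week array 2, 2 without control array 3 or 4-week array 1, and 7 without 4-week array 3. Of 14 vessel markers Cdh5, the endothelial cadherin (0.46, adjusted p = 0.00789), and Pecam1 (0.34; lost in 4 of 9 repeats, adjusted p up to 0.0939 without 4-week array 2) rose.

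Motile cilia genes showed a rise in single probe sets rather than in the group. The table has 27 probe sets for Ccdc180: 8 of them rose, and the other 19 were not called. The one with the largest change of all called probe sets named here was at 4.31, 5.21 and 4.43 on the arrays labelled control, 5.53, 5.39 and 4.53 on the OVA arrays and 7.11, 7.07 and 7.27 on the 4-week arrays (2.5, SE 0.29, adjusted p = 0.00242 in limma). The brightest probe set of Ccdc180 was at 7.83, 7.35 and 7.31 against 7.97, 8.16 and 8.21, a change of 0.61 (lost in 4 of 9 repeats, adjusted p up to 0.0879 without control array 2). Dnah3, an axonemal dynein heavy chain, had 16 of 33 probe sets higher and none lower, while its brightest had 0.77 and was not called (adjusted p = 0.121). Such probe sets cover different stretches of 1 gene, and what sets them apart was not tested. Over the 62 cilia genes 4 rose and 3 fell (median 0.05); the rises were 0 without control array 2, control array 3 or 4-week array 2 and 7 without OVA array 3.

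The remaining groups held 0 to 4 called genes each. None of 23 leukotriene, prostaglandin and histamine genes was called, nor any of 12 glial or 6 erythroid markers. Of 12 fat cell markers 1 fell, of 33 keratins and cornified envelope genes 1, and of 20 muscle markers 2, the troponins Tnnt1 (−0.44; lost in 5 of 9 repeats, adjusted p up to 0.0853 without control array 2) and Tnnc2 (−0.37; lost in 8 of 9 repeats, adjusted p up to 0.122 without 4-week array 2), with 0 falls after quantile scaling. Of 23 ion channel and aquaporin genes 3 rose, among them the chloride channel Cftr (0.37; lost in 7 of 9 repeats, adjusted p up to 0.134 without 4-week array 2), and 1 fell; the rises numbered 1 after quantile scaling, 2 without control array 2 or OVA array 3 and 0 in each of the other repeats. Of 17 genes of cholesterol synthesis 1 rose and 2 fell. With so few calls a share moves far from the background by 1 or 2 genes, and no result about these groups is drawn from them.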

How the data were processed

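Per the labels' protocols, total RNA of nasal mucosa was purified on RNeasy mini columns, and biotin-labelled target from whole-transcript kits was hybridised to Mouse Gene 1.0 ST arrays. The authors summarised each probe set with RMA, per the submitters' processing notes, and deposited log2 intensities. Which software, version and summarization level they used is not given in the sources used here; the log2 scale was taken from the values (1.63 to 13.8). The table holds 35556 rows, of which 476 carry the same 9 values as an earlier row, and all 9 columns were used. The platform annotation supplied the gene names: 23410 had a gene and were tested, 21789 of them exactly 1 gene, of which 20874 (19106 genes, 951 with several probe sets) lay on autosomes in the RefSeq table of GRCm38.p6. Groups came from the labels, 3 arrays each.

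The test was limma (version 3.58.1, under R 4.3.3) on all 9 arrays with 1 mean per group (lmFit and eBayes, 6 residual and 2.98 prior degrees of freedom), with two-sided tests and Benjamini-Hochberg adjustment over the 23410 probe sets at 0.05. Simulated data with 50 changed probe sets per fold size were used to test the fit for 4-week minus control: 68% of 1.5-fold, 86% of 2-fold and 100% of 3-fold and 4-fold changes were recovered, with 13 false among 190 calls. Named genes were the 15 largest higher and 15 largest lower called probe sets outside predicted genes, small RNAs and receptor families, a fixed set of allergy and cell markers, and for each list the 4 members whose p was smallest; further list members were named after their values were seen, as were the tissue markers and host genes. The members and lists were chosen with earlier results of these data known, and the tests and alternatives likewise. Tables and figures were made in Python 3.11.15 with pandas 2.3.3, numpy 2.4.6 and scipy 1.17.1. The alternatives were quantile scaling, median centring, the upper 60% of probe sets, every row, 1 probe set per gene, the 6 arrays alone, trend and robust variances, the replicate number as a block, and leaving out each array.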

Additional observations from a re-analysis of the deposited data

Results flagged for a closer look

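The genes in this part were those named in the report whose change from the arrays labelled control differed between the 4-week and the OVA arrays, by the test of 4-week minus OVA itself in limma (adjusted p under 0.05). Both changes use the same 3 arrays labelled control, and the test does not. Each value is the log2 difference 4-week minus OVA, n = 3 arrays per group, and 56 probe sets met this.

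Among clock and hormone-responsive genes the differences were Nr1d1 −1.26, Dbp −0.53, Arntl 0.63, Sgk1 0.70 and Ddit4 0.71. Inflammatory genes that were lower at 4 weeks than on the OVA arrays were Ccl20 −2.19, Cxcl2 −2.14, Socs3 −1.12 and Osmr −1.05, while the interferon-induced Rsad2 was higher by 0.72. Genes of the translation machinery were higher: Naca 0.71, Eif4a2 0.65, Eif3e 0.58, Eif3k 0.57 and Eif3c 0.38 among the factors, Rpl27a 0.72, Rpl4 0.67 and Rps25 0.52 among the ribosomal proteins, and Mrps21 0.92 and Ncl 0.33 besides. In protein folding and turnover the values were Hspa1a 0.42, Dnaja1 0.38, Hspa4 0.34, Psmb4 0.48 and Psmd5 0.42, with Ddit3 lower at −0.43. The complex I genes had Ndufa6 0.59, Ndufv2 0.37 and Ndufs7 −0.44.

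Small RNA probe sets fell from OVA to 4 weeks for Snord33 −1.54, Snora3 −1.51, Snora52 −1.41, Mir103-2 −1.04, Mir138-2 −0.79, Mir200b −0.70, Mir330 −0.64 and Mir182 −0.59, and rose for Mir186 0.92, Snord42b 0.49 and Mir7-1 0.37. Enzymes were higher for Cyp4a12a 1.44, Gsta3 0.82 and Ces1e 0.54, and the plasma protein genes F2 −0.48 and Orm2 −0.41 were lower. Neuronal genes were lower for Slc24a4 −0.59 and Gng8 −0.48, the gland product Dcpp2 was at −0.50 and the troponin Tnnt1 at −0.53. Gnat3 was higher by 0.55 and the matrix gene Ccn1 by 1.13. Of the cilia genes, Ccdc180 had 2.00 and 1.05 on 2 probe sets and Dnah3 1.44, 1.90 and 1.71 on 3.

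Outside the annotated probe sets, 12146 rows of the table carry no gene name here. In a fit of every row, 1289 of them (10.6%) were called between the 4-week arrays and the arrays labelled control, 539 higher and 750 lower, and 28 between the OVA arrays and the arrays labelled control. They were not analysed further.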

How the results depend on the processing

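The count of called autosomal probe sets, 2946 (1596 higher, 1350 lower), was 2552 (1233, 1319) after quantile scaling, 3022 (1888, 1134) after median centring, 2933 (1858, 1075) in the upper 60% of probe sets by mean, 2216 (1254, 962) with every row tested, 2528 (1258, 1270) with 1 probe set per gene and 3081 (1699, 1382) with trend and robust variances. With the 6 arrays of the comparison alone it was 1789, with 1098 higher and 691 lower, and 2054 of all annotated probe sets in place of 3364. Leaving out 1 array gave 1345 to 2600 autosomal calls, 765 to 1483 higher and 580 to 1181 lower, and 1560 to 2966 annotated ones. The lowest of each came without 4-week array 2, followed by control array 2 and control array 3. Higher calls were 54.2% of the autosomal calls as deposited, 48.3% after quantile scaling, 62.5% after median centring, 63.3% in the upper 60% and 61.4% with 6 arrays.

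No named gene changed sign in a setting where it was called. Of 220 called probe sets of named genes, 41 lost the call after quantile scaling, 9 after median centring, 34 with every row tested, 67 with 6 arrays and between 21 and 87 when 1 array was left out; the cause was not tested. The upper 60% filter kept 8 of the 32 plasma protein genes, of which 2 fell in place of 20 of 32. The replicate numbers of the labels were not shown to pair the arrays. The deviations of same-numbered arrays correlated at −0.04, 0.06 and 0.19 between the arrays labelled control and the 4-week arrays. Differently numbered arrays of these groups had −0.29 to 0.26. Between control and OVA the values were 0.31, 0.03 and 0.15, against −0.26 to 0.10. Between OVA and 4-week they were 0.18, −0.03 and 0.33, against −0.36 to 0.27. These values do not settle whether the numbers pair the arrays. With the replicate block 2835 autosomal probe sets were called, 1583 higher and 1252 lower, and 3271 annotated ones. Precision is limited by the 3 arrays in each group, and the signal over background is unknown because no detection calls were used.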
